A study of Mus musculus with 8 samples.

Results

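The integrated stress response and the stress response of the endoplasmic reticulum (ER) were followed through 9 genes in mouse embryonic stem (ES) cells: Atf4, Ddit3, Atf5, Trib3, Chac1, Asns, Ppp1r15a, Xbp1 and Hspa5. They were chosen by name, as Atf4, targets of Atf4 and genes of the unfolded protein response, by a rule that used no measured value. The choice was made with earlier results of these data known. All 9 were found among the 23560 genes of the deposited tables. All 9 also had a mean of 1 FPKM or more over the 8 libraries, as did 11832 genes in all.

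The cells had a mixed C57BL/6 and 129Sv background and had been passaged less than 20 times in medium with serum and leukemia inhibitory factor, which keeps ES cells undifferentiated. The 4 combinations were p53-/- with Adriamycin, p53-/- untreated, p53+/+ with Adriamycin and p53+/+ untreated, where p53 is the tumour suppressor encoded by Trp53 and Adriamycin (doxorubicin, 0.5 uM for 8 hours) is a topoisomerase inhibitor that breaks DNA. Each combination gave 1 RIP library, of RNA immunoprecipitated with an antibody to the RNA-binding protein hnRNP L, and 1 input library of polyadenylated RNA. The labels say neither how the p53-/- cells were made, nor whether each genotype was 1 clone, nor whether RIP and input of a combination came from the same dish.

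In the integrated stress response, kinases that sense ER stress, amino acid shortage, haem shortage or double-stranded RNA phosphorylate the translation factor eIF2 alpha. This slows most protein synthesis while the message of the transcription factor Atf4 is translated more. Atf4 then raises transcription of amino acid synthesis and stress genes, among them Asns, Chac1, Trib3 and Ddit3. In the unfolded protein response of the ER, the sensor Ire1 (encoded by Ern1) removes a short intron from Xbp1 mRNA, and the resulting transcription factor, with Atf6, raises ER chaperones such as Hspa5. Both responses act in part through translation, splicing and protein cleavage, which RNA levels do not show.

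Levels are FPKM (fragments mapped to a transcript, divided by its length and by the depth of the library), summed over the transcript records of a gene and divided by a scaling factor of the library, here called scaled FPKM. Differences are of log2(scaled FPKM + 1), which understates the change of low genes. RIP libraries held 3.21 to 4.94 Gb on annotated transcripts and input libraries 5.67 to 7.48 Gb. All 96 estimates of the 12 records of the 9 genes had a normal status, and the bounds deposited for each estimate were used as its error, with a confidence level that is not given in the sources used here. All 12 ES cell markers on the list used here stood at 1 scaled FPKM or more in every library. Trp53 RNA was present in the inputs labelled p53-/- (86.1 with Adriamycin and 105 scaled FPKM untreated) as well as in p53+/+ inputs (120 with Adriamycin and 178 untreated), and whole-transcript values do not show which exons were read. Mdm2, a p53 target, stood at 11.8 scaled FPKM with Adriamycin and 11.1 untreated in p53-/- input, and at 153 with Adriamycin and 19.2 untreated in p53+/+ input. The cultures also differed in fibroblast markers: the summed level of 20 of them was 457 scaled FPKM with Adriamycin and 408 untreated in p53-/- input, against 17.2 and 11.8 in p53+/+ input, where Col3a1, Dcn, Lum and Fap were listed at 0.

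Promoters are shown for the 4 genes in which a known stress motif was found by its letters, because factors of the pathway are known to bind such motifs. The windows run from 250 bases before to 50 bases after the start site (RefSeq, build GRCm38.p6) and are printed 5′ to 3′ on the strand of the gene, with motif matches in capitals. The C/EBP-ATF response element, bound by Atf4 with C/EBP partners, was searched on both strands as TGATGNAA and is present in 3.97% of 32851 promoter windows. It was found in Chac1 (chr2:119350992-119351291, plus strand), 193 to 186 bases before the start site on the other strand, in Trib3 (chr2:152344011-152344310, minus strand), 15 to 22 bases after it on the other strand, and in Asns (chr6:7693160-7693459, minus strand), 23 to 16 bases before it on the gene strand. The ER stress response element (CCAAT, 9 bases of any kind, CCACG), bound by Atf6 and other factors, was found in 0.119% of windows, and the unfolded protein response element core TGACGTG in 2.01%. Both were found on the gene strand of Hspa5 (chr2:34771840-34772139, plus strand), 65 to 47 and 157 to 151 bases before the start site, without overlap. The windows of the other 5 genes held none of these letter strings. Matches describe letters only and are not binding sites measured here.
Chac1: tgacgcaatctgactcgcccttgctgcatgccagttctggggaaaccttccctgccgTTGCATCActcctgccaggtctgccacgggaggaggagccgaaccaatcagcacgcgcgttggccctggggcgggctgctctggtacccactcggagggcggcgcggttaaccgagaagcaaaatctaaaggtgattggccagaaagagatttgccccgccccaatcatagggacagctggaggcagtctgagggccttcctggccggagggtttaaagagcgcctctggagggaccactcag
Trib3: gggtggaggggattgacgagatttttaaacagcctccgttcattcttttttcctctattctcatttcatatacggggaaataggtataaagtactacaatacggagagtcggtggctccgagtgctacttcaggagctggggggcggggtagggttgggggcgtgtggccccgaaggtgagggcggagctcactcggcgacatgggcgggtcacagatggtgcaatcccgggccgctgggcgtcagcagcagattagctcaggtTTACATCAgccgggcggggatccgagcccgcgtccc
Asns: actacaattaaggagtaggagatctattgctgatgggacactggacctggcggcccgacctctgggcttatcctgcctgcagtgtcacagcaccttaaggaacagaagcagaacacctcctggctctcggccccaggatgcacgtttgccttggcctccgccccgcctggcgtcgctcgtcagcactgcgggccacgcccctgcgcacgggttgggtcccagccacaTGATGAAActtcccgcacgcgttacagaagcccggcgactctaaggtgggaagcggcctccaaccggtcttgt
Hspa5: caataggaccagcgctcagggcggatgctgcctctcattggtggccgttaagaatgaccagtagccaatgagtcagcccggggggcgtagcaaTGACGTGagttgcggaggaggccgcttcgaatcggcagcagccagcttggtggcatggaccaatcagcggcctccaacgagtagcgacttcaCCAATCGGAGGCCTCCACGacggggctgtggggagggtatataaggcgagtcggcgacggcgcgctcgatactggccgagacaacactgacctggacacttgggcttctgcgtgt

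After Adriamycin, most of the 9 genes stood lower in p53+/+ input: Asns, Chac1, Atf4, Xbp1 and Hspa5 were lower by 1 or more on the log2 scale, and Trib3 alone was higher. With a pseudocount of 5 FPKM instead of 1, 2 of these 5 stayed past 1, and Chac1 (-0.72), Xbp1 (-0.98) and Hspa5 (-0.96) did not. None of the 9 was higher by 1 or more. Among all genes tested 3.96% were lower and 8.43% higher by that much, and the median difference was -1.01 over the 9 genes and -0.05 over all genes. Of the 7348 genes averaging 5 FPKM or more, 400 were lower and 503 higher by that much, with a median of -0.16. There was 1 library a side, so this comparison has no replicate check and no p-value. The deposited bounds of the 2 libraries were apart for 7 of the 9 genes, 6 lower and 1 higher. How often bounds were apart over all genes was not computed. The bounds are the error of single estimates and hold no spread between cultures, here and in the comparisons below. Of the 12 ES cell markers, 7 were lower by 1 or more in the same comparison (median -1.11). The sum of the 12 was 5711 scaled FPKM with Adriamycin against 7326 untreated. Most of it was Dppa5a, at 4317 against 4605, and the median marker level was 62.8 against 126. In p53-/- input all 12 were below 0 (median -0.41) and 1 was lower by 1 or more, where 0.33% of all genes were past 1 in either direction. The sum there was 5232 against 5989. The part of these markers in the values of the 9 genes was not tested.

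**Figure D1:**
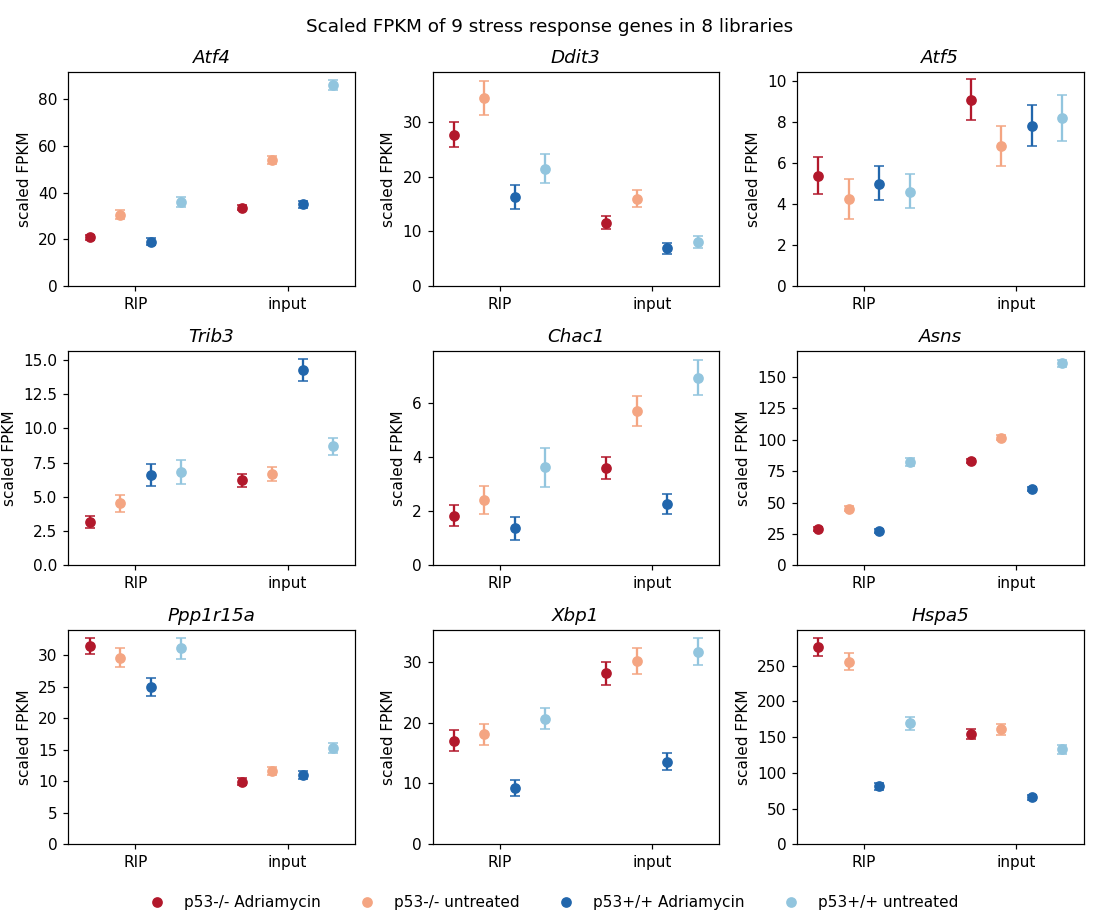
Scaled FPKM (y axis, from 0) of each of the 9 genes in the 4 RIP and 4 input libraries, coloured by genotype and treatment. Points are single libraries and bars the deposited bounds. In input, the p53+/+ Adriamycin library stood lowest of 4 for Asns (60.9), Xbp1 (13.6), Hspa5 (65.7), Chac1 (2.27) and Ddit3 (6.88), and highest for Trib3 (14.2).

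Atf4, the transcription factor at the centre of the response (mm9 chr15:80085614-80087971), stood at 35.0 scaled FPKM with Adriamycin and 86.0 untreated in p53+/+ input, a difference of -1.27. In p53+/+ RIP it stood at 18.9 with Adriamycin and 36.2 untreated (-0.90). Its level with Adriamycin was thus 40.7% of the untreated level in input and 52.2% in RIP.

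The genes that Atf4 acts on did not move as 1 block. Asns, asparagine synthetase (mm9 chr6:7625171-7643182), stood at 60.9 scaled FPKM with Adriamycin and 161 untreated in p53+/+ input (-1.39), and at 27.1 and 82.5 in p53+/+ RIP (-1.57). Chac1, an enzyme that degrades glutathione (mm9 chr2:119176978-119180062), stood at 2.27 with Adriamycin and 6.95 untreated in p53+/+ input (-1.28), and at 1.38 and 3.64 in p53+/+ RIP (-0.96). Trib3, a pseudokinase that restrains Atf4 (mm9 chr2:152163161-152169796), went the other way in p53+/+ input, with 14.2 scaled FPKM after Adriamycin and 8.69 untreated (0.65, bounds apart). In p53+/+ RIP, Trib3 stood at 6.60 with Adriamycin and 6.83 untreated, with overlapping bounds.

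Ddit3, the transcription factor CHOP linked to cell death under lasting ER stress (mm9 chr10:126727849-126733344), stood at 6.88 scaled FPKM with Adriamycin and 8.11 untreated in p53+/+ input (-0.21), with overlapping bounds. In p53+/+ RIP it stood at 16.3 with Adriamycin and 21.5 untreated (-0.38, bounds apart). The locus overlaps Mars1, whose difference in p53+/+ input was -0.72, so reads near the overlap may be shared. Atf5, a relative of Atf4 (mm9 chr7:52067626-52072028), stood at 7.80 with Adriamycin and 8.18 untreated in p53+/+ input (-0.06) and at 4.98 and 4.60 in p53+/+ RIP (0.09), with overlapping bounds in both. Atf5 overlaps Nup62 and Il4i1b in these annotations, so its level may hold reads of those genes. Ppp1r15a, or Gadd34, which brings a phosphatase to eIF2 alpha and ends the response (mm9 chr7:52778288-52781638), stood at 11.0 with Adriamycin and 15.2 untreated in p53+/+ input (-0.43) and at 24.9 and 31.1 in p53+/+ RIP (-0.31), with bounds apart in both.

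The ER genes were both lower. Xbp1 (mm9 chr11:5420644-5425996) stood at 13.6 scaled FPKM with Adriamycin and 31.6 untreated in p53+/+ input (-1.16), and at 9.25 and 20.6 in p53+/+ RIP (-1.08). Hspa5, the ER chaperone BiP (mm9 chr2:34627610-34632049), stood at 65.7 with Adriamycin and 133 untreated in p53+/+ input (-1.01), and at 81.2 and 169 in p53+/+ RIP (-1.05). The input difference of Hspa5 lay at the bound of 1 and was short of it in 5 of the alternatives tried, among them FPKM as deposited (-0.88). In p53+/+ RIP, 3 of the 9 genes (Asns, Xbp1 and Hspa5) were lower by 1 or more and 0 were higher, where all genes gave 5.38% lower and 9.43% higher. That RIP count depended on the genes used for scaling: it was 5 with factors from all genes above 0 and 1 with factors from genes averaging 5 FPKM or more.

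In p53-/- cells the same treatment left 0 of the 9 genes past 1 in either direction, in input (background 0.33%) or in RIP (background 0.473%). The largest input differences were those of Atf4 and Chac1. Atf4 stood at 33.6 scaled FPKM with Adriamycin and 53.8 untreated in p53-/- input (-0.67), and at 20.8 and 30.6 in p53-/- RIP (-0.53), with bounds apart in both. Chac1 stood at 3.61 with Adriamycin and 5.70 untreated in p53-/- input (-0.54, bounds apart), and at 1.84 and 2.41 in p53-/- RIP (-0.26, bounds overlapping). Both were therefore lower with Adriamycin in each of the 4 comparisons, by less in p53-/- cells.

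Ddit3 stood at 11.6 scaled FPKM with Adriamycin and 16.0 untreated in p53-/- input (-0.43) and at 27.8 and 34.5 in p53-/- RIP (-0.30), with bounds apart in both. Asns stood at 83.2 with Adriamycin and 102 untreated in p53-/- input (-0.28) and at 29.0 and 45.0 in p53-/- RIP (-0.62). Xbp1 stood at 28.1 with Adriamycin and 30.0 untreated in p53-/- input (-0.09), and Hspa5 at 154 and 161 (-0.06). For both ER genes the bounds overlapped in p53-/- input and in p53-/- RIP, where Xbp1 stood at 17.0 with Adriamycin and 18.1 untreated and Hspa5 at 275 and 255. Trib3 stood at 6.21 with Adriamycin and 6.66 untreated in p53-/- input (-0.09, bounds overlapping), and at 3.15 and 4.55 in p53-/- RIP (-0.42, bounds apart). Ppp1r15a stood at 9.96 with Adriamycin and 11.6 untreated in p53-/- input (-0.20, bounds apart), and at 31.4 and 29.6 in p53-/- RIP (0.08, bounds overlapping). Atf5 was the member on the higher side in p53-/- input, at 9.07 with Adriamycin and 6.81 untreated (0.37, bounds apart), and in p53-/- RIP it stood at 5.37 and 4.22 (0.29, bounds overlapping). Over the 9 genes the median difference in p53-/- input was -0.20, against 0.00 over all genes.

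**Figure D2:**
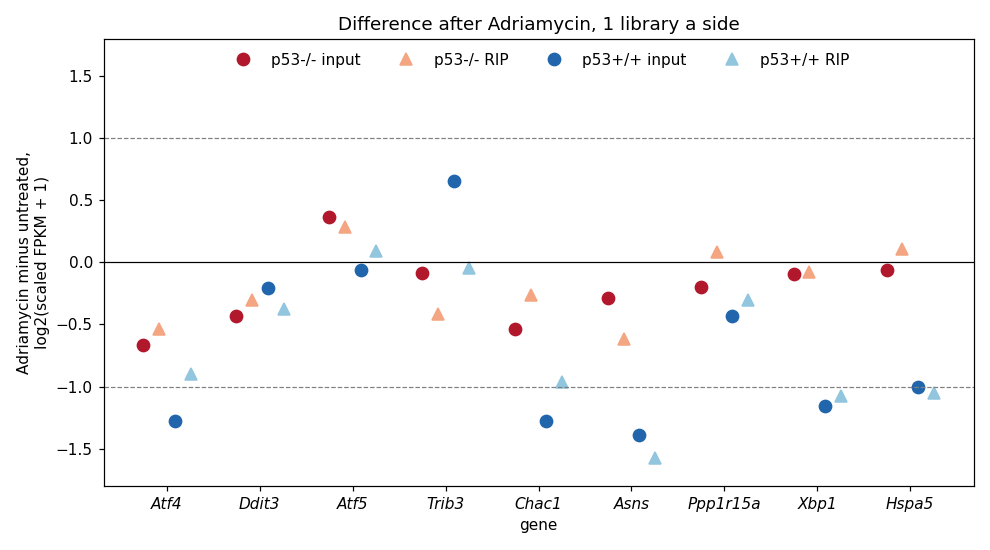
Adriamycin minus untreated in log2(scaled FPKM + 1) (y axis) for each of the 9 genes, in p53-/- (red shades) and p53+/+ (blue shades), input as circles and RIP as triangles. Each point is 1 library against 1 library and dashed lines mark 1 and -1. Asns (-1.39 in input, -1.57 in RIP), Xbp1 and Hspa5 lie at or past -1 in p53+/+ only.

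The difference between the genotypes in this response was computed from the 4 inputs as the p53+/+ difference minus the p53-/- difference, with 1 library in each corner and no test. Asns (-1.10) and Xbp1 (-1.07) were past -1, 2 of 9, where 2.82% of all genes were at or below -1 and 8.04% at or above 1. Hspa5 followed at -0.94, Chac1 at -0.74, Atf4 at -0.61, Atf5 at -0.43 and Ppp1r15a at -0.23. Trib3 stood at 0.74 and Ddit3 at 0.22. No gene of the 9 was above 1. The count was 0 with quantile normalization and 1 with a pseudocount of 5 FPKM or with factors from genes averaging 5 FPKM or more.

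Seen as p53-/- against p53+/+, the untreated inputs gave 0 of 9 genes past 1, where all genes gave 3.22% higher and 2.44% lower. Ddit3 was nearest, at 16.0 scaled FPKM in p53-/- and 8.11 in p53+/+ (0.90), and it was also higher in p53-/- with Adriamycin, at 11.6 against 6.88 in p53+/+ (0.68). Atf4 stood at 53.8 in untreated p53-/- input against 86.0 in p53+/+ (-0.67), and Asns at 102 against 161 (-0.66). The other untreated differences were -0.37 for Ppp1r15a, -0.34 for Trib3, -0.25 for Chac1 and 0.27 for Hspa5, with bounds apart, and -0.23 for Atf5 and -0.07 for Xbp1, with overlapping bounds. With Adriamycin the Atf4 levels of the 2 genotypes were 33.6 in p53-/- and 35.0 in p53+/+, within their bounds. With Adriamycin, Hspa5 was higher in p53-/- input, at 154 against 65.7 in p53+/+ (1.22), and Trib3 lower, at 6.21 against 14.2 (-1.08). Xbp1 stood at 28.1 in p53-/- and 13.6 in p53+/+ (0.995). Chac1 (0.49) and Asns (0.44) were on the higher side with bounds apart, and the bounds overlapped for Atf5 (0.19) and Ppp1r15a (-0.14). The counts of 1 higher and 1 lower stand beside 7.77% and 10.8% of all genes.

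A limma test of p53-/- against p53+/+ over the 4 inputs, with treatment as a term and 1 residual degree of freedom, called 0 of the 9 genes and 0 of 11832 genes. At an unadjusted p under 0.05 it had 2404 genes, 20.3%. With so few libraries, the count of 0 does not show that the genotypes were alike. Ddit3 averaged 13.8 ± 3.11 scaled FPKM in p53-/- input and 7.50 ± 0.868 in p53+/+ input (SD, n = 2 each), a difference of 0.79 ± 0.21 (SE, limma, adjusted p = 0.202). Hspa5 averaged 158 ± 4.81 in p53-/- and 99.3 ± 47.5 in p53+/+ (SD, n = 2 each), with a difference of 0.75 ± 0.29 (SE, limma, adjusted p = 0.266). Trib3 averaged 6.43 ± 0.317 in p53-/- and 11.5 ± 3.93 in p53+/+ (SD, n = 2 each), with a difference of -0.71 ± 0.27 (SE, limma, adjusted p = 0.257). The groups did not overlap for these 3 genes and overlapped for the other 6. The share of all genes without overlap was not computed, so this does not set the 3 genes apart. The differences of the other 6 were 0.46 for Xbp1, 0.12 for Chac1, -0.02 for Atf5, -0.11 for Asns, -0.25 for Ppp1r15a and -0.36 for Atf4. The SDs run over an untreated and a treated library of each genotype. Fibroblast markers differ between the same libraries as given above, and their part in these differences was not tested.

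Other genes of the pathway were read from 6 lists. In the list of other Atf4 and amino acid response targets, 31 of 36 were tested, and in p53+/+ input 6 were higher and 4 lower by 1 or more with Adriamycin, where all genes gave 8.43% higher and 3.96% lower (list median -0.27, all genes -0.05). The 5 largest on the higher side were Cbs, which makes cystathionine (48.1 scaled FPKM with Adriamycin and 9.43 untreated), Ddit4, an inhibitor of mTORC1 (140 and 36.4), the transcription factor Cebpb (5.95 and 1.12), Sesn2, a leucine sensor (28.9 and 9.10), and the transcription factor Atf3 (2.87 and 0.83). Ddit4, Sesn2 and Atf3 are also known as p53 targets. The lower ones were the tRNA synthetases Tars (18.8 with Adriamycin and 43.2 untreated) and Nars (28.7 and 62.8), the serine synthesis enzyme Psat1 (38.9 and 81.1) and the proline synthesis enzyme Aldh18a1 (3.61 and 8.36). In p53-/- input none of the 31 was past 1 (median -0.12, from -0.50 to 0.32).

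Among 20 ER chaperones and folding enzymes, 0 were higher and 1 was lower by 1 or more with Adriamycin in p53+/+ input, Hsp90b1, the ER form of Hsp90, at 76.4 scaled FPKM against 168 untreated (-1.13). The list median was -0.22. None was past 1 in p53-/- input (median 0.04). The 13 genes of ER-associated degradation had 0 past 1 in p53+/+ input (median 0.14, from -0.46 to 0.66), and so had the 14 genes of the eIF2 alpha kinases and phosphatase (median -0.26), the 6 tested UPR sensors (-0.23) and the 7 mitochondrial stress genes (-0.29). In p53-/- input none of the genes of these lists was past 1 either.

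**Figure D3:**
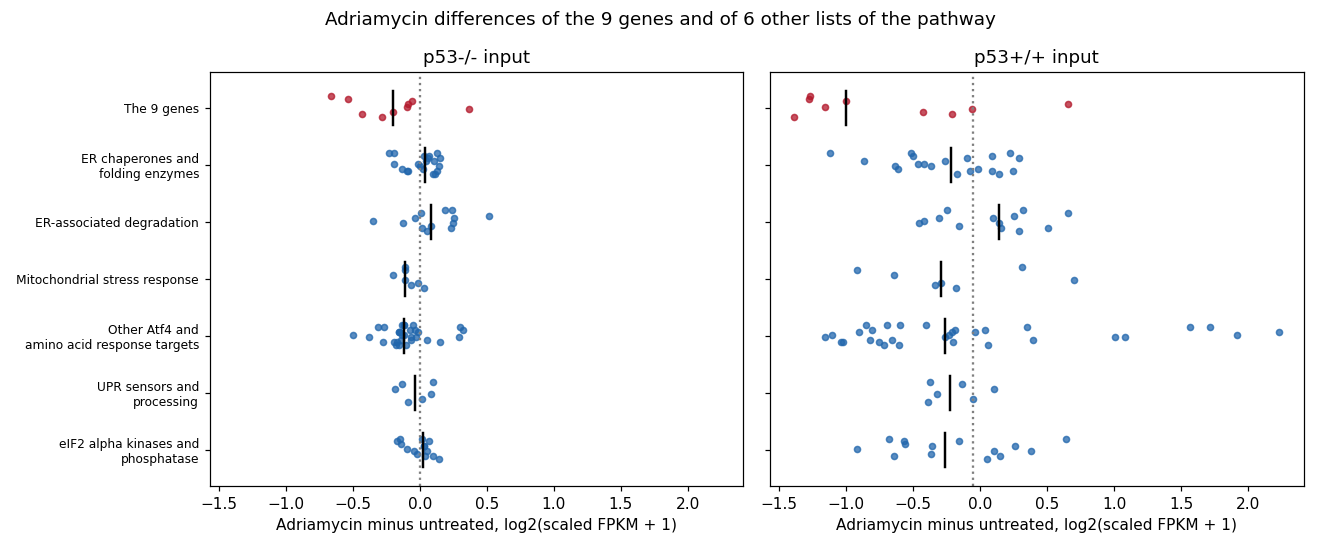
Adriamycin minus untreated in log2(scaled FPKM + 1) (x axis) in p53-/- input (left) and p53+/+ input (right) for the 9 genes (red) and 6 other lists of the pathway (blue). Each point is a gene, black bars are list medians and the dotted line is the median of all genes tested. In p53+/+ the median of the 9 genes lies at -1.01, and the Atf4 target list runs from -1.16 to 2.23.

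Between the genotypes, 7 of 20 ER chaperones were higher and 0 lower by 1 or more in p53-/- input with Adriamycin, where all genes gave 7.77% higher and 10.8% lower (list median 0.81, all genes 0.05). This comparison had 1 library a side. The 5 largest were P4hb, a protein disulphide isomerase (324 scaled FPKM in p53-/- and 101 in p53+/+), Hyou1 (42.5 and 13.3), Hsp90b1 (193 and 76.4), Ero1a, an oxidase that supplies disulphides (31.5 and 12.2), and Manf (60.2 and 27.0). The other lists did not share this direction. With Adriamycin, the 31 Atf4 and amino acid targets had 6 higher and 6 lower in p53-/- input (median 0.24). The 13 degradation genes had 1 higher and 0 lower, as had the 14 genes of the eIF2 alpha list. The 6 UPR sensors had 0 past 1, and the 7 mitochondrial genes 0 higher and 1 lower. In untreated input 2 of the 20 chaperones were higher, where all genes gave 3.22%, P4hb at 317 in p53-/- against 144 in p53+/+ and Ero1a at 36.2 against 16.6 (list median 0.45). Summed fibroblast markers were at 408 to 457 scaled FPKM in the p53-/- inputs and at 11.8 to 17.2 in the p53+/+ inputs, and their part in the chaperone differences was not tested. In bulk RNA, a change in the share of a cell type and a change in RNA per cell cannot be told apart.

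hnRNP L RIP was set against input over 4 pairs of libraries, 1 for each combination of genotype and treatment, with the combinations standing in as replicates. Ddit3, Ppp1r15a and Hspa5 were higher in RIP and Asns, Atf4, Chac1, Trib3, Atf5 and Xbp1 lower, 9 of 9 past an adjusted p of 0.05 (limma with the pair as a block, Benjamini-Hochberg over all genes). Of all genes 75.1% passed, 37.3% higher and 37.8% lower, so passing by itself does not set the 9 genes apart. At 1 or more, the higher side held Ddit3 and Ppp1r15a (16.2% of all genes) and the lower side Asns (13.4%). Each of the 9 went in 1 direction in all 4 pairs. RIP values are relative to the median gene of the library. Libraries made with a control antibody were not analysed here.

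Ddit3 had 27.8, 34.5, 16.3 and 21.5 scaled FPKM in RIP and 11.6, 16.0, 6.88 and 8.11 in input, in the order p53-/- Adriamycin, p53-/- untreated, p53+/+ Adriamycin and p53+/+ untreated. The lowest RIP library (16.3, bounds 14.1 to 18.5) was above the highest input (16.0, bounds 14.5 to 17.5) by less than these bounds. Within pairs the difference was 1.17 ± 0.08 (SE, n = 4 pairs, limma, adjusted p = 3.31e-05). The overlapping gene Mars1 went the other way (-0.98). Ppp1r15a, in the same order, had 31.4, 29.6, 24.9 and 31.1 in RIP and 9.96, 11.6, 11.0 and 15.2 in input. Every RIP value was above every input, and the difference was 1.23 ± 0.11 (SE, n = 4 pairs, limma, adjusted p = 9.00e-05). Hspa5 had 275, 255, 81.2 and 169 in RIP and 154, 161, 65.7 and 133 in input. Its groups overlapped, with the p53+/+ Adriamycin libraries low in both kinds, and within pairs it was higher in RIP by 0.54 ± 0.12 (SE, n = 4 pairs, limma, adjusted p = 0.00535). Without scaling of the libraries Hspa5 was lower in RIP (-0.39, limma, adjusted p = 0.208), where the median of all genes was -0.72 and not 0.00. Ddit3 (0.31) and Ppp1r15a (0.35) stayed on the higher side without scaling but did not pass.

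**Figure D4:**
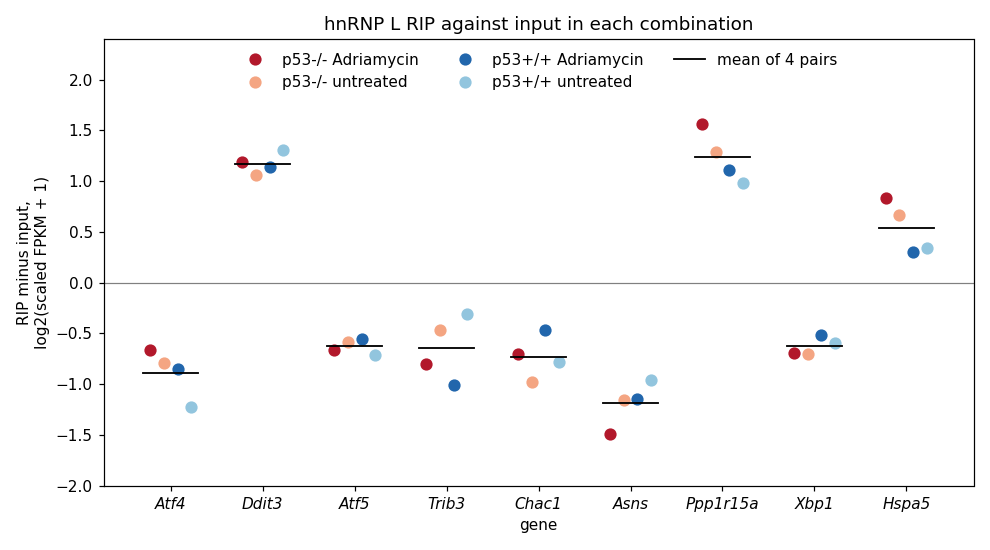
RIP minus input in log2(scaled FPKM + 1) (y axis) for each of the 9 genes in the 4 combinations of genotype and treatment, with the mean of 4 as a bar. Ddit3 (1.06 to 1.31), Ppp1r15a (0.98 to 1.57) and Hspa5 (0.30 to 0.83) lie above 0 and the other 6 below it.

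On the lower side, Asns had 29.0, 45.0, 27.1 and 82.5 scaled FPKM in RIP and 83.2, 102, 60.9 and 161 in input, in the same order, a difference of -1.19 ± 0.11 (SE, n = 4 pairs, limma, adjusted p = 8.60e-05). Atf4 had 20.8, 30.6, 18.9 and 36.2 in RIP and 33.6, 53.8, 35.0 and 86.0 in input, a difference of -0.88 ± 0.11 (SE, n = 4 pairs, limma, adjusted p = 0.000377). For both, the untreated p53+/+ RIP library was above at least 1 input, so the groups overlapped. The other 4 were lower by 0.62 to 0.73: Chac1 (-0.73), Trib3 (-0.64), Atf5 (-0.63) and Xbp1 (-0.62). Trib3 varied most between pairs, with 6.60 scaled FPKM in RIP and 14.2 in input for p53+/+ with Adriamycin, and 6.83 in RIP and 8.69 in input for p53+/+ untreated. Only for Atf5 among these 6 did RIP (4.22 to 5.37) and input (6.81 to 9.07) not overlap, and its neighbour Nup62 went the other way (1.78). This holds for the sum of the Atf5 records. The noncoding record alone overlapped, at 3.64 to 4.98 scaled FPKM in RIP and 4.94 to 7.49 in input. How often groups did not overlap among all genes was not computed. When the pair was left out of the model as a block, 4 of 9 genes passed (Ddit3, Ppp1r15a, Asns and Atf5), as did 5362 of all 11832 genes.

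The order of the levels differed between the kinds of library. Hspa5 was the highest of the 9 in all 4 RIP libraries, at 81.2 to 275 scaled FPKM, and in 3 inputs, while Asns was highest in untreated p53+/+ input (161 against 133 for Hspa5). Chac1 was lowest in all 8 libraries, at 1.38 to 3.64 in RIP and 2.27 to 6.95 in input. Ppp1r15a came second in p53-/- Adriamycin RIP (31.4, with Asns at 29.0 and Ddit3 at 27.8) and sixth in the matching input. In untreated p53+/+ input Trib3 (8.69), Atf5 (8.18) and Ddit3 (8.11) differed by less than their bounds.

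The RIP/input ratio was compared between genotypes with limma, with the 2 treatments of a genotype standing in as replicates. It called 0 of the 9 genes and 384 of 11832 (3.25%). With FPKM as deposited the test called 4 of the 9, all higher in p53-/-: Hspa5 (1.15), Ppp1r15a (1.08), Atf4 (1.01) and Atf5 (0.59). In that setting it called 4801 of 11832 genes, 4622 of them higher, and the median of all genes was 0.53. At an unadjusted p under 0.05 there were 2391 genes (20.2%), of which Hspa5 was the member, with a ratio higher in p53-/- by 0.42 ± 0.17 (SE, n = 2 pairs each, limma, adjusted p = 0.227). Its RIP minus input difference was 0.83 with Adriamycin and 0.66 untreated in p53-/-, and 0.30 and 0.35 in p53+/+, without overlap. Ppp1r15a had 1.57 and 1.28 in p53-/- against 1.11 and 0.98 in p53+/+ (0.38 ± 0.17, SE, n = 2 pairs each, limma, adjusted p = 0.263). The other 7 were Atf4 (0.31), Trib3 (0.02), Atf5 (0.01), Ddit3 (-0.10), Xbp1 (-0.15), Chac1 (-0.22) and Asns (-0.28). Without scaling the last 4 were above 0. The part of the mapped reads that fell on annotated transcripts, estimated from FPKM times length, was 64.2% and 65.2% in the p53-/- RIP libraries and 41.1% and 48.9% in the p53+/+ ones, against 87.6% to 90.6% in inputs, and its bearing on these ratios was not tested.

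Xbp1 has records of 2247 and 2221 bases, NM_013842 and NM_001271730, whose lengths differ by 26, the size of the intron that Ire1 removes, and the shorter one stands for the spliced message. In input the spliced record held 12.9% of the Xbp1 level in p53-/- with Adriamycin and 20.4% untreated, and 23.6% in p53+/+ with Adriamycin and 15.7% untreated. Its share with Adriamycin was thus lower in p53-/- and higher in p53+/+, while its deposited FPKM was lower in both, at 5.08 against 8.18 in p53-/- and 4.63 against 6.56 in p53+/+. The unspliced record in p53+/+ input stood at 15.0 FPKM with Adriamycin and 35.3 untreated. In RIP the share was 23.5% in p53-/- with Adriamycin, 4.97% in p53-/- untreated, 9.88% in p53+/+ with Adriamycin and 0.00815% in p53+/+ untreated. The shares are estimates of the authors' software for records that differ in length by 26 bases.

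**Figure D5:**
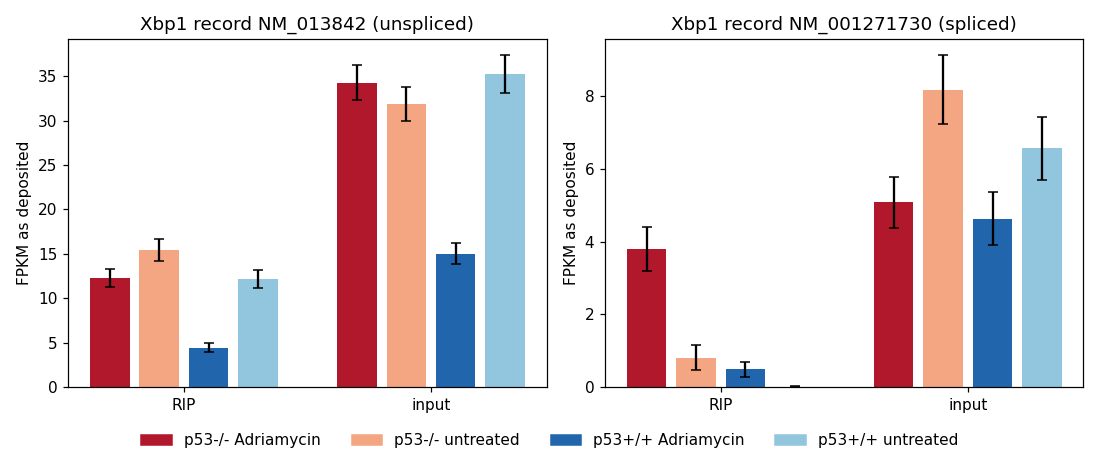
FPKM as deposited (y axis, from 0) of the unspliced (left) and spliced (right) Xbp1 records in RIP and input libraries, with the deposited bounds as bars. In input the unspliced record was low in p53+/+ Adriamycin (15.0), and in RIP the spliced record was near 0 in p53+/+ untreated.

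Hspa5 had 92.1% to 96.2% of its level on record NM_001163434 in all 8 libraries. Of the 2 Atf5 records, the noncoding one NR_033136 held 67.1% of the level in untreated p53+/+ input and 86.4% in p53+/+ with Adriamycin, and the coding record NM_030693 stood at 1.53 FPKM with Adriamycin against 3.56 untreated, while the noncoding one stood at 9.75 against 7.26. The summed Atf5 level in p53+/+ input (7.80 and 8.18 scaled FPKM) thus held records that differed in opposite directions.

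In RIP against input, of the 31 Atf4 and amino acid targets 7 were higher and 18 lower past the threshold, as were 37.3% and 37.8% of all genes. The amino acid transporter Slc7a1 was higher by 4.07 ± 0.21 (SE, limma, adjusted p = 1.56e-05), with 45.1, 58.9, 150 and 177 scaled FPKM in RIP and 3.24, 3.45, 5.55 and 6.48 in input, in the order used above. The translation repressor Eif4ebp1 was higher by 2.44 and the stress protein Nupr1 by 1.36, and Ddit4 was lower by 1.75. Among the 6 tested UPR sensors and processing genes, 3 were higher and 2 lower past the threshold. Mbtps2, the protease that cuts Atf6 in the membrane, was higher by 2.43, Creb3l2 by 1.11 and Atf6 by 0.36. Rtcb (-1.03) and Atf6b (-0.63) were lower. Of 20 chaperones 4 were higher, Hsp90b1 by 0.84, Calr by 0.57, Manf by 0.51 and Dnajc3 by 0.30, and 13 were lower, led by Sdf2l1 (-1.67). Of the 14 genes of the eIF2 alpha kinases and phosphatase, 4 were higher and 8 lower past the threshold (list median -0.44). The kinases Eif2ak4 (0.94), Eif2ak2 (0.55) and Eif2ak1 (0.38) were higher, while the kinase Eif2ak3 lay below 0 (-0.25). The lower genes were led by Ppp1ca (-1.40), and Ppp1r15b, the constitutive relative of Ppp1r15a, was lower too (-0.87). All 7 mitochondrial stress genes lay below 0, and 6 of them passed.

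The genes most like each of the 9 over the 8 libraries were listed by Pearson r of log2(scaled FPKM + 1) among 7235 genes. Libraries share kind, genotype and treatment, so the values are a description. For Hspa5 they were the cytosolic chaperone Hspa4 (r = 0.994) and the ER stress factor Manf (0.991). For Asns they were Lap3 (0.992) and Dnmt3l (0.990), for Atf4 Mthfd1l (0.994) and Wee1 (0.991), and for Xbp1 Ddah2 (0.994) and Lbr (0.993). Trib3 was most like Dele1 (0.990) and Dstn (0.978), Chac1 like Trim28 (0.988) and Nr0b1 (0.988), Ddit3 like Ankrd10 (0.988) and Vezf1 (0.987), Ppp1r15a like Mllt6 (0.995) and Incenp (0.994), and Atf5 like Mtfr1l (0.979) and Scamp2 (0.974).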

How the data were processed

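RNA of 8 libraries, 1 per group, was sequenced from TruSeq libraries, per the labels' protocols. Per the submitters' processing notes, the authors used CASAVA 1.8.2, TopHat2 2.0.8, TopHat and Cufflinks, with the mm9 build. Settings are not stated there. The authors deposited an FPKM value for each of 30769 RefSeq records with lower and upper bounds and a status, per the file headers. A coverage signal per record was deposited too, per the file headers, and was used only for depth.

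Records were matched by accession to symbols in a table of GRCm38.p6 (98.2% matched, to 23560 genes) and FPKM was summed per gene. Coordinates are mm9, with 1 added to the deposited starts, which count from 0. A factor per library was taken as the median, over genes averaging at least 1 FPKM and above 0 in every library, of its ratio to the geometric mean of the 8 (factors 0.532 to 1.45). Differences are of log2(scaled FPKM + 1). The 11832 genes averaging at least 1 FPKM were tested with limma 3.58.1 in R 4.3.3 (eBayes with trend, Benjamini-Hochberg, threshold 0.05). Replicate numbers are not given in the labels. RIP and input libraries were paired by genotype and treatment, and RIP against input had that pair as a block (3 residual degrees of freedom). Each group was 1 library, so in every test libraries of different conditions stood in as replicates, and p-values measure the spread across those conditions. The labels do not say that the libraries came from separate cultures, so part of that spread may be technical. Contrasts with 1 library a side have no test, and there 1 or more on the log2 scale was called. Read counts were not analysed here, so precision was read from the deposited bounds, whose half-width was 1.75% to 31.1% of the level for the 9 genes.

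The limma fits were tested on simulated data with 200 genes changed, on which the genotype test in input made no call. The rule for the 9 genes used no measured value, but members and lists were chosen with earlier results of these data known. All 9 genes are named in every comparison, and from each other list at most the 5 largest past the threshold per direction. Markers used were 12 of ES cells and 20 of fibroblasts. Motifs were searched in RefSeq promoter windows. The alternatives numbered 19, of which 3 were added after seeing the data. 1 result on a listed gene is not reported here.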

Additional observations from a re-analysis of the deposited data

Results flagged for a closer look

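Over the 4 input libraries, Xbp1 in p53+/+ with Adriamycin stood far from the others, at 3.87 in log2(scaled FPKM + 1). Its gap to the nearest of the other inputs was 0.858 of the whole range, above Dixon's critical value for 4 values. In scaled FPKM this is 13.6, against 28.1 in p53-/- with Adriamycin, 30.0 in p53-/- untreated and 31.6 in p53+/+ untreated. Among 27 groups of values checked this was the 1 result marked, and chance marks about 1 in 20. The 4 inputs are of 4 different conditions.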

How the results depend on the processing

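Of 1070 values of the 9 genes under 19 alternatives, 27 crossed the bound of 1, 7 lost the call with the sign kept and 4 gained it. In all 23 changed sign, 11 of them in contrasts without a test and within the bound of 1, and 12 in tested contrasts. Of those 12, 1 was called in the main setting, Hspa5 in RIP against input, and it lost its call as well. With FPKM as deposited, Hspa5 in RIP against input was -0.39 (adjusted p = 0.208), and 4 of 9 RIP/input ratios differed between genotypes. Without scaling the median of all genes moved to -0.72 in RIP against input (1540 higher and 7246 lower, against 4412 and 4470) and to 0.53 for the ratio between genotypes (4622 higher and 179 lower, against 99 and 285). The uncalled ratios between genotypes that changed sign were Ddit3 (0.56), Xbp1 (0.51), Asns (0.44) and Chac1 (0.21) with FPKM as deposited, Ddit3 (0.092) and Xbp1 (0.073) with quantile normalization, Ddit3 (0.013) with a pseudocount of 5 FPKM, Trib3 (-0.029) with one of 0.1 FPKM and Atf5 (-0.17) with the highest record alone. Atf5 between genotypes in input became 0.034 with quantile normalization and 0.0081 with the highest record alone. Without the replicate block RIP against input called 4 of 9 genes, and 5362 of all genes against 8882. Leaving out each pair in turn, RIP against input called 9 of 9 each time, and 8061 to 8390 of all 11832 genes. The largest adjusted p among the 9 was 0.0311 (Hspa5, limma). With Adriamycin in p53+/+ input, 2 of 9 were past 1 with a pseudocount of 5 FPKM. In p53+/+ RIP it was 5 with factors from all genes above 0 and 1 with factors from genes averaging 5 FPKM or more. For p53-/- against p53+/+ with Adriamycin, and for the difference between genotypes in the Adriamycin response, quantile normalization left 0 and a pseudocount of 5 FPKM left 1, and the difference between responses had 1 with factors from genes averaging 5 FPKM or more. The cause of these shifts was not tested.

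Among all genes, factors from all genes above 0 gave 884 higher and 734 lower with Adriamycin in p53+/+ input (997 and 469 with the scaling used) and 932 and 959 in p53+/+ RIP (1116 and 637), and factors from genes averaging 5 FPKM or more gave 1161 and 309 in input and 1347 and 427 in RIP. RIP of p53+/+ as deposited gave 781 and 768. Genes under 300 bases left out changed p53-/- counts to 5 and 12 in input (17 and 22) and 6 and 26 in RIP (24 and 32). Counts past 1 with a pseudocount of 5 and of 0.1 FPKM were 618 and 2243 for p53+/+ input (1466), 844 with 5 for p53+/+ RIP (1753), 21 and 66 for p53-/- input (39), 31 and 128 for p53-/- RIP (56), 196 and 1319 for genotype untreated (670), 946 with 5 for genotype with Adriamycin (2198) and 522 and 1994 for the difference of responses (1285). Testing genes averaging 5 FPKM or more alone gave 903, 1006, 25, 395, 1327 and 750 for p53+/+ input, p53+/+ RIP, p53-/- input, genotype untreated, genotype with Adriamycin and the difference of responses. The highest record alone gave 61 for p53-/- input and 127 for p53-/- RIP. The genotype test in input (0 calls by limma) had 34 with quantile normalization, 3 with a pseudocount of 0.1 FPKM, 26 with genes averaging 5 FPKM or more, 36 with factors from all genes, 43 without short genes and 76 without the treatment term. The ratio test (384) had 45, 226, 1, 119, 1284 and 590 with quantile normalization, a pseudocount of 5 FPKM, no filter, the highest record alone, treatment as a covariate and no short genes. Depth limits Chac1 most, with bounds of up to 31.1% of its level.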
